A study of Mus musculus with 6 samples.

Results

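Genes that fold secretory proteins in the endoplasmic reticulum (ER), sense unfolded protein there and remove what fails to fold were followed in pancreatic acinar cells of control mice and of mice given cerulein. The list held 43 genes out of 21949 genes in the table, chosen by name and with earlier results of these data known. It comprised 12 chaperones and cofactors, 11 thiol oxidoreductases, 3 lectin-cycle genes, 2 prolyl isomerases and 3 stress sensors. It also held 10 genes of ER-associated degradation (ERAD) and 2 genes of the translocon and cargo transport. All 43 were found by symbol, Ero1b under its older name Ero1lb. RNA of sorted acinar cells was sequenced in 3 control and 3 cerulein libraries. The mice of both groups were adult, CD1-enriched and of genotype ElastaseCreER/ROSA26YFP, in which the elastase promoter drives an inducible Cre and the YFP reporter marks cells where Cre has acted. The labels name no other allele or agent for the controls. Cerulein mimics cholecystokinin, drives acinar cells beyond their normal secretion and is used to induce pancreatitis. Each treatment day had 7 injections, the treatment alternated days within a span of 3 days, and the mice then recovered for 1 day. The dose is left out because its labelled unit is not plausible. Libraries are numbered 1 to 3 in each group, and nothing in the labels says that each came from a separate mouse, so the p-values rest on a spread between samples that may be only technical.

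As background, acinar cells make more secretory protein per cell than almost any other cell, and their rough ER is correspondingly large. Nascent chains enter through the translocon, are bound by the HSP70 chaperone BiP and the lectins calnexin and calreticulin, and gain disulfide bonds from protein disulfide isomerases that Ero1 oxidases recharge. The sensors IRE1, PERK and ATF6 respond to unfolded protein, and the factors they release raise chaperone and ERAD genes. In ERAD, terminally misfolded chains are recognised by EDEM and OS9 lectins, passed to the SEL1L and HRD1 complex and the derlins, ubiquitinated and degraded in the cytosol.

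Values are FPKM, fragments scaled to transcript length and to the size of the library, summed over the transcripts of a gene. The deposited table had lost many decimal marks, between 18.0% and 21.4% of transcripts per library, which leaves 2 or 3 possible values a factor of 10 apart. Marks were placed from the whole number of fragments behind each value and from the other libraries of the group, and 27 of the 43 members could be restored in all 6 libraries. All 27 had a mean of at least 1 FPKM and were tested, beside 7200 genes in all. The other 16 members are given by their likely readings, those with a posterior of at least 0.01, and were tested under each combination of them, a step decided after seeing the data. At 2000 bases, 1 FPKM stood for between 6.45 and 8.09 fragments in the controls. It stood for between 23.1 and 34.0 in the cerulein libraries, which makes low control levels the less precise ones.

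Most members that could be tested were lower after cerulein, and none was higher. Of 27 tested members, 16 fell at a limma adjusted p under 0.05 and 0 rose, while over all tested genes 4.76% fell and 5.75% rose. Calls to lower were more common among genes of higher level. With a mean of at least 5 FPKM required, 329 of all 2223 genes fell and 227 rose, and of 25 members 18 fell and 0 rose. The median log2 fold change of the 27 was -1.43, against 0.07 over all tested genes, and 25 of the 27 had a negative value. In 19 of the 27 every cerulein library lay below every control library, which was the case for 14.6% of all tested genes, and in none did they lie above, against 17.6% of all tested genes. The summed level of the 27 was 1141, 1815 and 2021 FPKM in the controls, in the order of their numbers as in all values below. It was 464.1, 429.7 and 446.1 FPKM after cerulein. In bulk RNA, fewer cells of a type and less RNA per cell cannot be told apart.

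**Figure D1:**
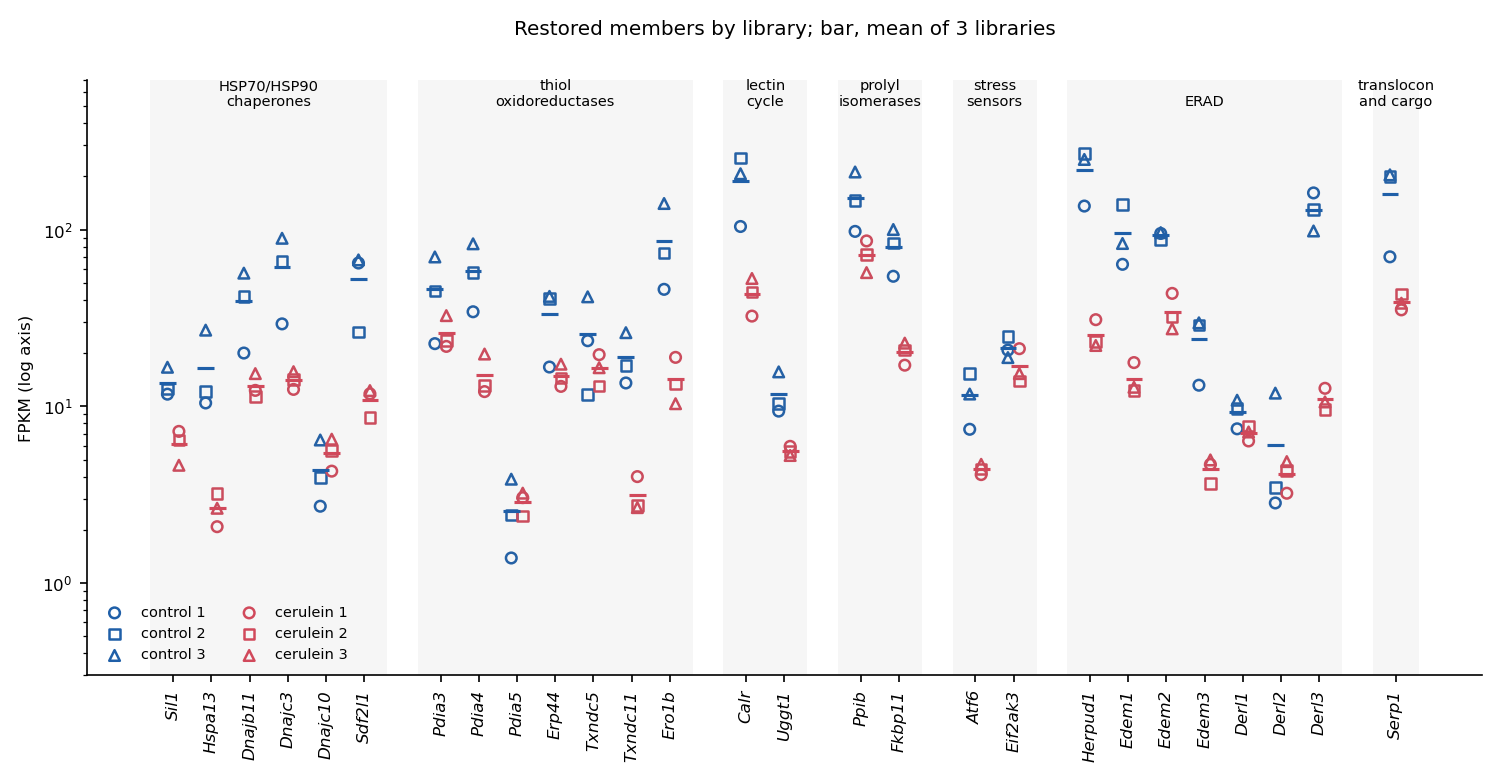
FPKM (log axis) of the 27 restored members in each library, grouped by role, with control in blue, cerulein in red, a symbol for each library number and a bar at the mean of 3 libraries. Cerulein libraries lie below all control libraries in 19 members, and the groups overlap in the others, such as Dnajc10, Pdia5, Derl1, Derl2 and Eif2ak3.

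The libraries differed in more than these genes. Acinar markers, which check the label, were present in every library, and all 8 tested ones fell (median log2 fold change -2.90). Their sum was 251000 to 295000 FPKM in controls and 36300 to 68400 FPKM in cerulein. Macrophage and myeloid markers rose in 9 of 13 tested (median 1.97), with a summed level of 1.56 to 30.6 FPKM in controls and 71.4 to 150 FPKM in cerulein. Matrix and fibroblast markers rose in 5 of 10 tested (median 2.94), from sums of 1.74 to 169 FPKM to sums of 174 to 284 FPKM, with Timp1 at 0 in every control. Ductal markers rose in 3 of 5 tested, from sums of 24.2 to 51.4 FPKM to sums of 134 to 151 FPKM. Plasma cell and B cell markers, which matter here because plasma cells also have a large ER, summed to 1.66 to 5.96 FPKM in controls and 17.1 to 17.3 FPKM in cerulein, with Tnfrsf17 at 0 in every library and Cd79a and Cd79b at 0 in every control. Sdc1, the 1 tested gene of this list, carried nearly all of that sum, with 5.57, 2.2 and 1.51 FPKM in controls and 16.7, 14.9 and 15.3 in cerulein. Jchain, Mzb1, Cd79a, Cd79b and Ms4a1 stood at 1.57 FPKM or less in every library. The part of these shifts in the results below was not tested.

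A change in very abundant RNAs shifts the FPKM of all others, so the libraries were also brought to an equal sum of the genes outside a list of digestive enzymes. On that scale the median of all tested genes moved from 0.07 to 0.555 on the log2 scale, and 2.5% of them were lower and 23.0% higher. Of the 27 members 12 still fell, with a median of -0.77, and 0 rose. The 4 that no longer passed were Dnajb11, Edem2, Atf6 and Serp1. Scaled instead to a median difference of 0, where 5.28% of all tested genes fell and 5.1% rose, 17 members fell and 0 rose.

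**Figure D2:**
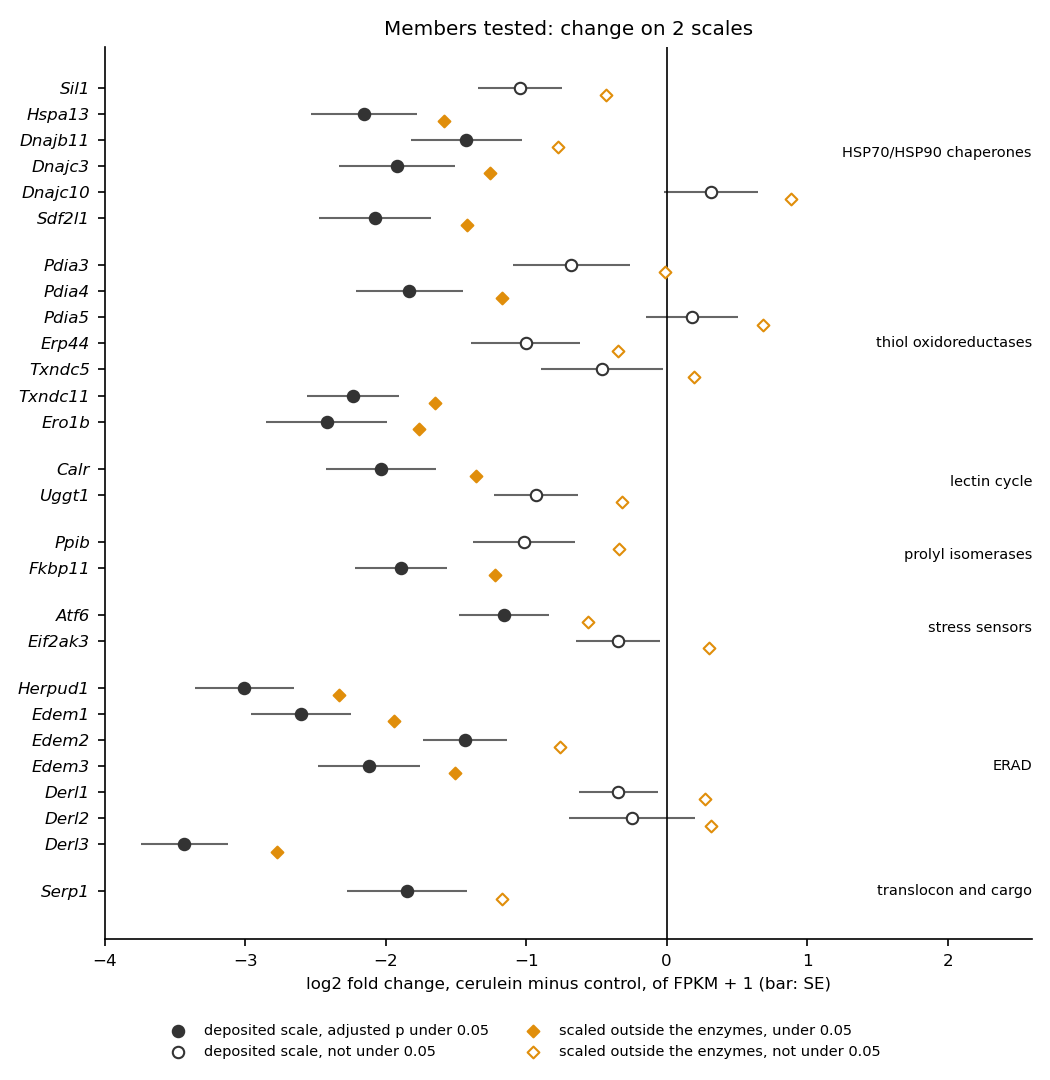
Log2 fold change (cerulein minus control, of FPKM + 1) of the 27 tested members, with the standard error as a bar, on the deposited scale (circles) and with an equal sum outside the digestive enzymes (diamonds). Filled symbols passed an adjusted p of 0.05, which 16 members did on the deposited scale and 12 on the other.

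A minority of the members held a known response element of the unfolded protein response in the bases before their start. The list was chosen by name and includes genes of that response, so a share above that of all genes is no independent result. The ER stress response element (ERSE) is the pair CCAAT and CCACG with any 9 bases between them, to which NF-Y and ATF6 are known to bind. It was searched on both strands of the 250 bases before the annotated start in RefSeq's promoters of build GRCm38.p6, which held 35 of the 43 members. Of the 35 matched members, 10 held an ERSE (28.6%), against 35 of all 27025 genes (0.13%) and 0.145% of the tested genes in the table. The related ERSE-II, which is ATTGG, any 1 base and CCACG, was found in Herpud1 alone among the members and in 0.037% of genes. The core of the XBP1 and ATF6 element UPRE, TGACGTGG, was found in Txndc11 and Txndc5 (5.71% of members) and in 0.603% of genes. Txndc11 has 2 annotated promoters and Txndc5 has 3, and in each gene the core lay in only 1 of them. Both of these matches fall inside the annotated span of the gene. No match overlapped another, and 13 of the 35 members (37.1%) held at least 1 of the 3 motifs, against 0.759% of genes.

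The elements are shown because their fixed bases are the same while spacer, strand and distance differ. Each is read on the strand on which it is spelled as above, with 10 bases either side and the fixed bases of the motif in capitals. The ERSE of Calr (chr8:84847065-84847103, plus strand), Canx (chr11:50325790-50325828, minus), Creld2 (chr15:88819510-88819548, minus), Derl3 (chr10:75893232-75893270, minus), Dnajc3 (chr14:118937817-118937855, plus) and Ero1b (chr13:12565672-12565710, minus) read as follows.
Calr: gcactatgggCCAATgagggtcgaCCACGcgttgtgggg
Canx: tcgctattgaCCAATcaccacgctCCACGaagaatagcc
Creld2: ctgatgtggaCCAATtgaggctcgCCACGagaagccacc
Derl3: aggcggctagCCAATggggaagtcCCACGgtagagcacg
Dnajc3: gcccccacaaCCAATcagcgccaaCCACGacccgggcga
Ero1b: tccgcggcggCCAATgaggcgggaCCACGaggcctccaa
Hsp90b1 held 2 elements (chr10:86705523-86705561, plus strand, and chr10:86705628-86705666, minus), and Hspa5 (chr2:34772015-34772053, plus), Pdia6 (chr12:17266481-17266519, plus) and Syvn1 (chr19:6046522-6046560, plus) held 1 each.
Hsp90b1, nearer the start: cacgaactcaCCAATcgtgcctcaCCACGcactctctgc
Hsp90b1, farther: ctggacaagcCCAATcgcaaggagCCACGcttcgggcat
Hspa5: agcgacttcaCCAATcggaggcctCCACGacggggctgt
Pdia6: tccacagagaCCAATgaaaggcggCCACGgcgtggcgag
Syvn1: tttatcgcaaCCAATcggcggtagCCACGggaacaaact
The ERSE-II of Herpud1 (chr8:94386367-94386397, plus strand) and the UPRE cores of Txndc11 (chr16:11134617-11134644, minus) and Txndc5 (chr13:38528035-38528062, minus) were as follows.
Herpud1: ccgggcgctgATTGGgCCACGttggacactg
Txndc11: gaagtgtggcTGACGTGGagagtccggg
Txndc5: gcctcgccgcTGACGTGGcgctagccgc

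Of the 4 tested members with an ERSE (Calr, Derl3, Dnajc3 and Ero1b) all 4 fell, with a median log2 fold change of -2.23. Of the 19 tested members in the promoter table without an ERSE 10 fell, with a median of -1.43. Over all tested genes 4.76% fell. The other 6 members with an ERSE could not be restored. Of these, Hsp90b1 and Syvn1 fell under every likely reading, Hspa5 and Canx under some, and Creld2 and Pdia6 under none. Of the 6 unrestored members without an ERSE, 3 fell under every likely reading, 2 under some, and Os9 could not be run. The other 4 tested genes with an ERSE, which are no members and are named after their values were seen, were Acacb, Alg12, Hnrnpa3 and Pan2, and none of them passed (median -0.15). The element of Alg12, a glycosyltransferase gene, was the very stretch printed above for Creld2, which lies next to it in the opposite direction. Alg12 stood at 1.28 ± 0.963 FPKM in controls and 0.998 ± 0.428 in cerulein (SD, n = 3 each). A match describes the letters only, and these windows say nothing of whether a factor was bound.

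**Figure D3:**
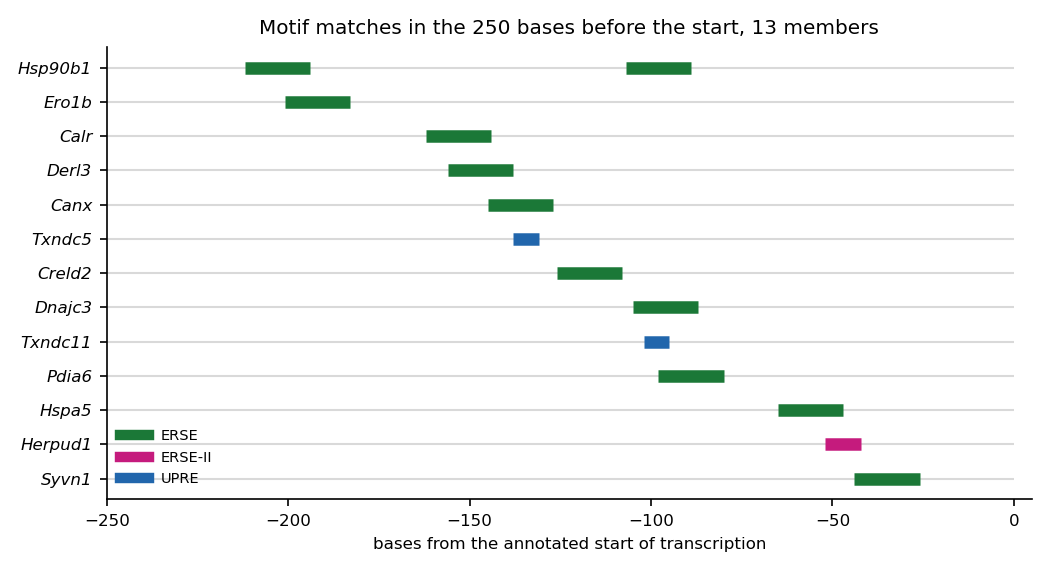
Places of the motif matches in the 250 bases before the annotated start of transcription (x axis, bases from the start) in the 13 members that hold one, with ERSE in green, ERSE-II in magenta and the UPRE core in blue. Distances range from 44 bases (Syvn1) to 212 bases (Hsp90b1), counted from the start to the far end of the match.

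Of the HSP70 and HSP90 chaperones and their cofactors, those restored and tested fell, except for Sil1 and Dnajc10. Most of those tested were cofactors: Hspa13 was the only HSP70 restored in all libraries, and Hsp90b1, the HSP90, was not. Of 12 members 6 were tested, 4 fell and 0 rose, with a median of -1.67 (-1.01 outside the enzymes). BiP itself, Hspa5 (chromosome 2, 34771970 to 34777547, build mm10), the central HSP70 of the ER, could not be placed in control library 1, which read 95.6 or 956 FPKM. Hspa5 stood at 324.2 and 538.0 FPKM in control libraries 2 and 3 and at 85.0, 91.1 and 88.7 FPKM in cerulein libraries 1, 2 and 3. The 3 cerulein libraries lay close together and below every control library, by a factor of only 1.05 if the lower reading is the true one. A second reading of cerulein library 2 was 45.6 FPKM (posterior 0.0335). Over the 4 combinations of likely readings, the log2 fold change was between -2.96 and -1.52 and the limma adjusted p between 0.00417 and 0.110, and 2 of the 4 passed.

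Hsp90b1, the ER member of the HSP90 family (GRP94), had 538.0 and 339.6 FPKM in control libraries 2 and 3 and 138.8 or 1388 FPKM in control library 1. In cerulein libraries 1, 2 and 3 it had 42.4, 58.8 and 82.2 FPKM, all below the lowest control reading, and it fell under either reading (limma adjusted p 0.00398 and 0.0194). Its exons are overlapped by 3 other genes, a pseudogene and non-coding RNAs, and reads of overlapping genes cannot be told apart here. Hyou1, a large HSP70 that releases nucleotide from BiP, had 37.9 and 43.6 FPKM in control libraries 1 and 2, 82.5 or 129.6 in control library 3, and 15.5, 13.1 and 14.5 FPKM in cerulein. Its groups were at least 2.44-fold apart between the nearest libraries, and it fell under both readings (adjusted p at most 0.0238).

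The J proteins deliver clients to BiP and stimulate its ATPase, and 2 of the 3 tested ones fell. Dnajc3 (P58IPK) had 29.3, 66.2 and 89.4 FPKM in controls and 12.5, 14.1 and 15.7 FPKM in cerulein. The groups did not overlap, and Dnajc3 fell by 1.92 on the log2 scale (SE 0.411, limma adjusted p = 0.0192). It did not pass with no filter on low values, or when control library 2 or any 1 cerulein library was left out. Dnajb11 (ERdj3) had 20.03, 42.0 and 56.7 FPKM in controls and 12.3, 11.4 and 15.3 in cerulein. It fell by 1.43 (SE 0.395, adjusted p = 0.0492), just past the threshold. Dnajb11 did not pass in 10 of 14 alternatives, among them 5 of the 6 that leave out a library. Dnajc10 (ERdj5), a J protein that also reduces disulfides for ERAD, had 2.72, 3.95 and 6.45 FPKM in controls and 4.30, 5.62 and 6.52 FPKM in cerulein. Its groups overlapped and its log2 fold change was 0.31 (SE 0.334, adjusted p = 0.596). Dnajb9 (ERdj4), which holds IRE1 in check, had 76.9 and 42.9 FPKM in control libraries 2 and 3. It had 4.53 and 9.08 FPKM in cerulein libraries 1 and 2. Control library 1 read 11.2 or 112 FPKM and cerulein library 3 read 1.05 or 10.5 FPKM. It passed as lower in 3 of 4 likely combinations of readings (adjusted p 0.00279 to 0.0664).

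Of the remaining cofactors of the HSP70 system, Hspa13 and Sdf2l1 were tested and fell, Sil1 was tested and missed the threshold, and Manf and Creld2 could not be placed. Hspa13, an HSP70 of the microsomes, had 10.5, 12.1 and 27.0 FPKM in controls and 2.08, 3.22 and 2.65 in cerulein, a 6.23-fold difference of means. Hspa13 fell by 2.16 on the log2 scale (SE 0.378, limma adjusted p = 0.00854) and passed in all 16 alternatives. Sdf2l1, a partner of ER J proteins such as Dnajb11, had 64.7, 26.3 and 67.4 FPKM in controls and 11.8, 8.67 and 12.3 in cerulein. Sdf2l1 fell by 2.08 (SE 0.399, adjusted p = 0.0132), and lost its call when cerulein library 2 or 3 was left out. Sil1, a nucleotide exchange factor of BiP, had 11.7, 12.5 and 16.6 FPKM in controls and 7.22, 6.46 and 4.64 in cerulein. The groups of Sil1 did not overlap, but its log2 fold change of -1.04 missed the threshold (SE 0.299, adjusted p = 0.0540), and antisense genes overlap its exons. Manf, a secreted cofactor of BiP, had 97.4 and 153.7 FPKM in control libraries 2 and 3, 36.2 or 362 in control library 1, and 19.0, 28.4 and 28.3 FPKM in cerulein. Manf passed under the higher reading only (adjusted p 0.00687 and 0.0577). Creld2, a protein induced by ER stress, had 10.4 or 104 FPKM in control library 1, 15.2 and 68.2 in the other controls and 9.30, 5.79 and 16.8 in cerulein. Its groups overlapped at the lower reading, and it passed under neither reading (adjusted p 0.0593 and 0.289).

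Among the thiol oxidoreductases, Ero1b, Txndc11 and Pdia4 fell. Of 11 members 7 were tested, 3 fell and 0 rose, with a median of -1.0 (-0.35 outside the enzymes). Ero1b (chromosome 13, 12565874 to 12611396), the oxidase that recharges disulfide isomerases and is prominent in secretory cells, had 45.9, 73.9 and 140.6 FPKM in controls and 18.9, 13.4 and 10.3 FPKM in cerulein. Every cerulein library lay below every control library, at least 2.43-fold between the nearest, and Ero1b fell by 2.42 (SE 0.431, limma adjusted p = 0.00919). The call was lost when cerulein library 2 or 3 was left out. Its paralog Ero1a, listed as Ero1l, outside the members and named after its values were seen, had 2.48, 6.40 and 5.41 FPKM in controls and 4.29, 3.08 and 4.34 in cerulein, with overlapping groups.

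Txndc11, a thioredoxin-domain protein of the ER membrane known to bind EDEM proteins, had 13.6, 17.1 and 26.1 FPKM in controls and 4.00, 2.75 and 2.67 in cerulein. It fell by 2.23 (SE 0.326, limma adjusted p = 0.00362) and passed in all 15 alternatives that tested it, while the gene Snn overlaps its exons on the other strand. Pdia4 (ERp72), another disulfide isomerase, had 34.3, 57.3 and 83.1 FPKM in controls and 12.1, 13.1 and 19.8 in cerulein and fell by 1.83 (SE 0.382, adjusted p = 0.0176). The call was lost with no filter on low values and when control library 2, cerulein library 1 or cerulein library 2 was left out. Pdia2, the disulfide isomerase typical of pancreas, was the highest of the unplaced members, at 1005 and 1061 FPKM in control libraries 1 and 2 and 1341 or 1862 in control library 3. Its cerulein libraries 1, 2 and 3 stood at 289.5, 233.1 and 162.9 FPKM, at least 3.47-fold lower, and Pdia2 fell under both readings (adjusted p 0.00299 and 0.00387).

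The other disulfide isomerases gave no call or depended on unplaced marks. Pdia3 (ERp57), the partner of calnexin and calreticulin, had 22.6, 45.0 and 70.1 FPKM in controls and 21.8, 23.5 and 32.6 in cerulein, with overlapping groups (log2 fold change -0.68, SE 0.418, limma adjusted p = 0.331). Erp44, which retains client proteins in the early secretory pathway, had a log2 fold change of -1.002 (adjusted p = 0.133), Txndc5 of -0.46 (0.548) and Pdia5 of 0.18 (0.764), and their groups overlapped. P4hb, the archetypal disulfide isomerase, had 366.8 and 437.7 FPKM in control libraries 1 and 2, 649.3 or 1397 in control library 3, and 269.3, 154.9 and 152.8 in cerulein. P4hb passed in 2 of 4 combinations of likely readings (adjusted p 0.0383 to 0.0615). Erp27, a non-catalytic relative, and Pdia6 passed in none, and the sign of Pdia6 changed with the readings (log2 fold change -1.02 to 1.07).

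Of the lectin cycle, which retains glycoproteins until they are folded, calreticulin fell. Calr (chromosome 8, 84841850 to 84846934) had 104.2, 255.0 and 207.2 FPKM in controls and 32.4, 44.4 and 52.9 FPKM in cerulein. The lowest control was 1.97 times the highest cerulein library, and Calr fell by 2.03 on the log2 scale (SE 0.394, limma adjusted p = 0.0134). Leaving out control library 2 or cerulein library 2 ended the call (adjusted p = 0.0537 and 0.0658). Its membrane-bound relative calnexin, Canx, had 48.5 and 103.1 FPKM in control libraries 1 and 2, 100.5 or 131.1 in control library 3, and 46.6, 45.1 and 44.3 FPKM in cerulein. Control library 1 of Canx lay 1.04-fold above the highest cerulein library, and Canx passed in 1 of 4 combinations of likely readings (adjusted p 0.0408 to 0.183). Uggt1, the glucosyltransferase that returns unfolded glycoproteins to the lectins, had 9.40, 10.4 and 15.7 FPKM in controls and 5.94, 5.55 and 5.27 in cerulein. The groups of Uggt1 did not overlap, but it missed the threshold (log2 fold change -0.93, SE 0.297, adjusted p = 0.0763).

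Of the 2 prolyl isomerases, which speed the turning of proline bonds during folding, Fkbp11 fell. Fkbp11, an isomerase of secretory tissues, had 54.5, 84.2 and 100.2 FPKM in controls and 17.1, 20.9 and 22.8 in cerulein, with groups at least 2.39-fold apart. Fkbp11 fell by 1.89 (SE 0.328, limma adjusted p = 0.00813) and lost its call only without cerulein library 2 (adjusted p = 0.0508). Ppib (cyclophilin B) had 97.7, 145.7 and 212.0 FPKM in controls and 86.3, 72.3 and 57.1 in cerulein. Its groups did not overlap, and its log2 fold change of -1.02 did not pass (SE 0.362, adjusted p = 0.105).

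Of the 3 stress sensors 2 were tested and 1 of them fell, with little room. Atf6, the sensor whose cytosolic part becomes a transcription factor, had 7.41, 15.4 and 11.7 FPKM in controls and 4.11, 4.43 and 4.70 in cerulein. Atf6 fell by 1.16 (SE 0.320, limma adjusted p = 0.0485), but it passed in only 3 of 14 alternatives. A less likely reading of control library 3 (1.17 FPKM, posterior 0.0212) would end the call. Ern1 (IRE1), the kinase and RNase that splices Xbp1 RNA, had 18.1 and 12.9 FPKM in control libraries 2 and 3, 12.9 or 33.5 in control library 1, and 6.71, 5.64 and 6.25 FPKM in cerulein. It fell under both readings (adjusted p 0.0285 and 0.0395). Eif2ak3 (PERK), the kinase that slows translation, had 20.8, 24.8 and 18.9 FPKM in controls and 21.2, 13.9 and 15.3 in cerulein. Its groups overlapped (log2 fold change -0.35, SE 0.299, adjusted p = 0.502). The ratio of Atf6 to Eif2ak3, which does not depend on the scale of a library, was 0.356, 0.621 and 0.622 in controls and 0.194, 0.318 and 0.307 in cerulein. The exact permutation test of this ratio, 2-sided, gave p = 0.1, the smallest that 3 against 3 libraries allow. The pair was chosen after the values were seen, so this p is descriptive only.

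ERAD had the lowest median change of the 7 roles. Of 10 members 7 were tested, 5 fell and 0 rose, with a median of -2.12 (-1.51 outside the enzymes). Derl3 (chromosome 10, 75893413 to 75895941), the derlin of secretory cells and an ERSE gene, had 161.4, 129.8 and 98.3 FPKM in controls and 12.7, 9.61 and 10.6 FPKM in cerulein. Even the nearest libraries were 7.77-fold apart. Derl3 fell by 3.43 on the log2 scale (SE 0.310, limma adjusted p = 0.000337), an 11.9-fold difference of means, and passed in all 16 alternatives. The other derlins did not pass. Derl1 had 7.46, 9.72 and 10.8 FPKM in controls and 6.37, 7.74 and 7.16 in cerulein (adjusted p = 0.481). Derl2 had 2.84, 3.46 and 11.9 FPKM in controls and 3.22, 4.33 and 4.87 in cerulein (adjusted p = 0.767), and both pairs of groups overlapped. The ratio of Derl3 to Derl1 within a library was 21.6, 13.4 and 9.08 in controls and 1.99, 1.24 and 1.48 in cerulein, 8.96-fold lower in the mean of logs (2-sided exact permutation p = 0.1, the smallest possible). The ratio of Derl3 to Derl2 was 56.9, 37.5 and 8.27 in controls and 3.92, 2.22 and 2.18 in cerulein, with the same p. Both derlin ratios were chosen after the values were seen, so their p is descriptive only.

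Herpud1 (chromosome 8, 94386438 to 94395377), the ubiquitin-like membrane protein that assembles the degradation complex, had 136.0, 269.0 and 249.7 FPKM in controls and 30.9, 23.3 and 22.1 FPKM in cerulein. The groups were at least 4.40-fold apart, and Herpud1 fell by 3.00 on the log2 scale (SE 0.352, limma adjusted p = 0.00138), also in all 16 alternatives. The core of the same complex, Sel1l and the ubiquitin ligase Syvn1 (HRD1), could not be placed in 1 library each. Sel1l stood at 143.7, 195.1 and 296.5 FPKM in controls, at 15.2 and 13.5 FPKM in cerulein libraries 2 and 3, and at 8.85 or 31.1 in cerulein library 1. Syvn1, overlapped by the exons of Mrpl49, stood at 38.2 and 46.8 FPKM in control libraries 2 and 3, 51.6 or 73.0 in control library 1, and 3.60, 3.53 and 4.11 in cerulein. Both fell under every combination of likely readings, with groups at least 4.62-fold apart for Sel1l and 9.30-fold for Syvn1 and adjusted p of at most 0.00366 and 0.000374. Os9, a lectin that feeds this complex, could not be placed in any library and has no value here.

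The EDEM genes, whose products trim mannose from glycoproteins bound for degradation, fell in all 3 cases. Edem1 had 63.7, 139.3 and 83.5 FPKM in controls and 17.7, 12.2 and 12.8 in cerulein, and fell by 2.602 on the log2 scale (SE 0.359, limma adjusted p = 0.00276). Its groups were at least 3.60-fold apart, and it passed in all 16 alternatives. Edem3 had 13.2, 28.9 and 29.7 FPKM in controls and 4.69, 3.66 and 4.97 in cerulein, and fell by 2.12 (SE 0.361, adjusted p = 0.00757), though not without cerulein library 2 (adjusted p = 0.0524). Edem2 had 95.2, 87.4 and 96.2 FPKM in controls and 43.6, 32.0 and 27.5 in cerulein, with groups 2.01-fold apart. Edem2 fell by 1.43 (SE 0.301, adjusted p = 0.0181), lost its call when scaled outside the enzymes (adjusted p = 0.0761) and without cerulein library 2 (0.110) or 3 (0.116), and rests on control library 1 not being 9.52 FPKM, a reading of posterior 0.0135. The ratio of Edem1 to Edem2 was 0.669, 1.59 and 0.868 in controls and 0.406, 0.383 and 0.467 in cerulein (2-sided exact permutation p = 0.1, the smallest possible). This ratio, too, was chosen after the values were seen.

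Serp1 and Tmed11, at the entry and exit of the ER, were also lower. Serp1 (RAMP4), a small protein at the translocon, had 70.2, 200.3 and 204.3 FPKM in controls and 35.2, 43.2 and 38.3 in cerulein. Serp1 fell by 1.85 (SE 0.429, limma adjusted p = 0.0261), but it passed in 8 of 15 alternatives and not when scaled outside the enzymes (adjusted p = 0.0546), and Eif2a overlaps its exons. Tmed11, a cargo receptor of the p24 family, stood at 109.6 and 167.8 FPKM in control libraries 2 and 3, 31.2 or 312 in control library 1, and 5.25, 6.14 and 2.74 in cerulein. Tmed11 fell under both readings (log2 fold change -5.03 to -3.94, adjusted p at most 0.0033), at least 5.09-fold between the nearest libraries, and Vmn2r8 overlaps its exons.

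**Figure D4:**
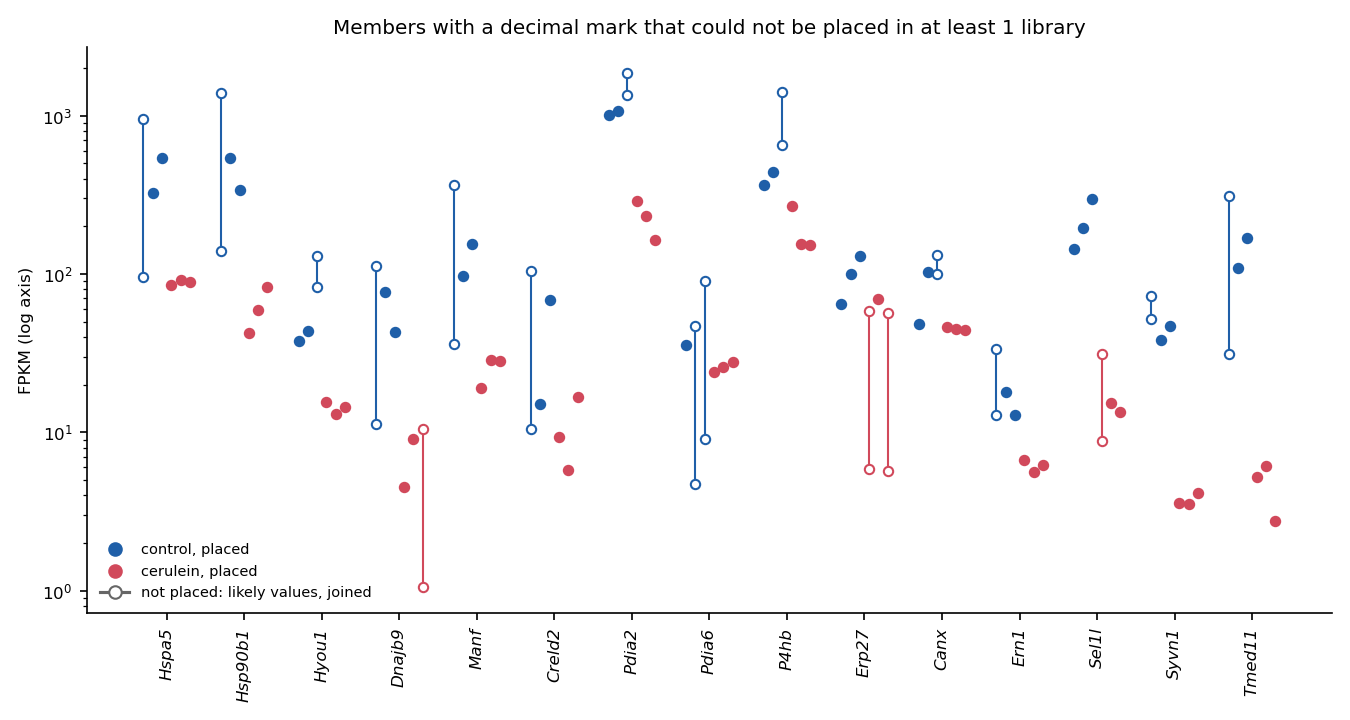
FPKM (log axis) of the 15 members with an unplaced decimal mark other than Os9, by library, control in blue and cerulein in red. Open circles joined by a line are the likely readings of a library whose mark could not be placed. For 12 of the 15 the cerulein readings lie below all control readings, against 14.6% of all tested genes, which were restored. The gap is widest for Syvn1, Tmed11 and Sel1l, and only 1.04-fold for Canx, 1.05-fold for Hspa5 and 1.07-fold for Dnajb9.

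Over the 16 members that could not be restored, 7 fell whichever likely reading was taken (Hsp90b1, Hyou1, Pdia2, Ern1, Sel1l, Syvn1 and Tmed11). In addition, 5 fell under some readings, 3 under none, and Os9 could not be run. These combinations were run on the deposited scale only, with no library left out. Whether the 7 calls hold on another scale or without a library was not tested. If every place that the digits allow is admitted, whatever its fit, the groups overlap in all 43 members, the 27 restored ones included. With the most probable reading taken for each, 23 of the 43 members fell and 0 rose, where 6.01% of all 9073 genes tested that way fell and 8.16% rose.

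Control library 1 stood apart among the controls. Among the 27 tested members it was the lowest control in 22 (81.5%), while it was the lowest in 34.4% of all tested genes. It held the highest summed levels among controls of macrophage (30.6 against 8.68 and 1.56 FPKM), matrix (169 against 5.35 and 1.74 FPKM) and endothelial markers (26.9 against 0.129 and 0 FPKM). It also held the highest sum of acinar markers among the controls (295000 against 286000 and 251000 FPKM), of ductal markers (51.4 against 32.7 and 24.2 FPKM) and of plasma cell and B cell markers (5.96 against 2.83 and 1.66 FPKM). For Dnajb11, Dnajc3, Pdia3, Erp44 and Ero1b a reading of control library 1 that is 10 times higher kept a posterior of 0.0107 to 0.0282. The part of either in the order of the controls was not tested. Without control library 1, 21 of the 27 members fell, and the 5 added were Erp44 (limma adjusted p = 0.00844), Ppib (0.0234), Sil1 (0.0285), Uggt1 (0.0307) and Pdia3 (0.0413). Without control library 2 the count was 10, without control library 3 it was 13, and without cerulein library 1, 2 or 3 it was 11, 5 or 9. The number of all 7200 tested genes that fell changed as well: it was 583, 162 and 346 without control library 1, 2 or 3, and 212, 70 and 75 without cerulein library 1, 2 or 3.

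Genes of the same pathways outside the 43, also chosen with earlier results of these data known, were read from the same fit. Of 80 further symbols of ER quality control and the unfolded protein response, 73 were in the table and 54 were tested. Of these, 10 fell and 1 rose, where 4.76% of all tested genes fell and 5.75% rose, with a median log2 fold change of -0.29 (0.34 outside the enzymes). The difference between the members and these genes was not tested. Of 15 tested regulators 4 fell and 1 rose, of 8 further oxidoreductases 2 fell, of 4 lectin and glucosidase genes 2 fell, and of 16 further ERAD genes 2 fell. None of 4 further prolyl isomerases and of 7 further chaperone helpers passed.

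Creb3l1, a membrane-bound transcription factor of secretory cells (chromosome 2, 91982328 to 92024502), had 104.1, 111.9 and 39.96 FPKM in controls and 6.72, 6.34 and 9.22 in cerulein. It fell by 3.24 on the log2 scale (SE 0.418, limma adjusted p = 0.00216), and its groups did not overlap. Rnf5, a ubiquitin ligase of ERAD that the antisense gene Gm20463 overlaps, also fell (log2 fold change -2.05). So did the peroxiredoxin Prdx4 (-1.89), the sulfhydryl oxidase Qsox1 (-1.85) and the first glucosidase of glycan trimming, Mogs (-1.79). The calls of Prdx4, Qsox1 and Mogs were lost without cerulein library 2 and without cerulein library 3, and that of Prdx4 also with no filter on low values (adjusted p = 0.068). Trib3, a pseudokinase induced through ATF4 and CHOP, was the gene that rose: it had 0.918, 0 and 0.975 FPKM in controls and 8.73, 3.82 and 3.42 in cerulein (log2 fold change 1.92, SE 0.408, adjusted p = 0.0187). Trib3 passed in 9 of 15 alternatives (adjusted p 0.00406 to 0.0762). Atf4, the factor translated when PERK is active, had 47.1, 73.4 and 101.9 FPKM in controls and 55.6, 54.5 and 49.7 in cerulein, with overlapping groups (adjusted p = 0.501). Ddit3 (CHOP) had 6.45, 0.695 and 1.59 FPKM in controls and 7.30, 3.95 and 4.49 in cerulein, also overlapping (adjusted p = 0.272, and 0.0176 without control library 1), and other genes overlap its exons. Xbp1, whose spliced form drives chaperone and ERAD genes, had 189.5 and 228.6 FPKM in control libraries 1 and 3 and 154.8 or 283.8 in control library 2. In cerulein libraries 1 and 3 it had 138.0 and 102.5 FPKM, and in library 2 a reading of 107.4 (posterior 0.964) or 405.0. Its spliced and unspliced forms are not told apart by these values.

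**Figure D5:**
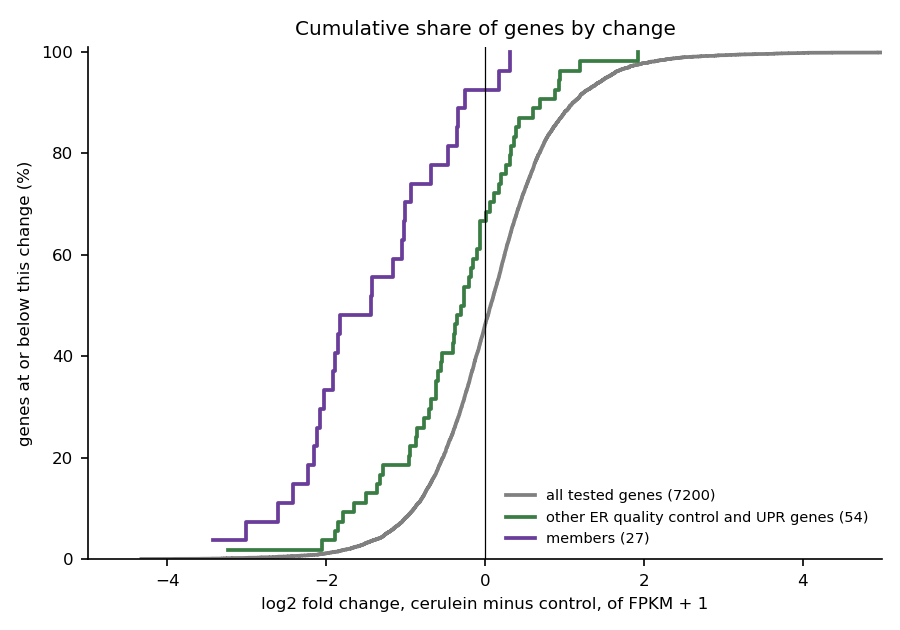
Cumulative share of genes (y axis, percent) at or below each log2 fold change (x axis, cerulein minus control, of FPKM + 1) for the 27 tested members, the 54 other genes of ER quality control and the unfolded protein response, and all 7200 tested genes. The medians are -1.43, -0.29 and 0.07.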

How the data were processed

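RNA sequencing of sorted acinar cells from 3 control and 3 cerulein samples was analysed. The deposited table gives FPKM per transcript for 50660 transcripts; per the submitters' processing notes the build was mm10 and the tools included HISAT2, featureCounts, fastp and DESeq2. Which of them made the FPKM is not stated. Decimal marks were lost in the deposited values, so the test planned for FPKM was run on restored values and the raw column was not treated as plain FPKM. The FPKM times the effective length over a library constant is a whole number of fragments; lengths came from GENCODE vM21 (98.91% of transcripts), and up to 600 bases of length difference were allowed. Places were weighed by distance to whole fragments and by a replicate spread of 0.6 log2 units within the group, and accepted at a posterior of 0.95. Where 2 places a factor of 10 apart both gave whole fragments, the lower was favoured unless the other libraries of the group said otherwise. Of 425 intact values treated as lost, 384 were placed, all 384 right, but the settings were tuned with this check in view. Replicates help to place a mark, which favours genes with similar replicates and can make their p-values too low.

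Transcripts were summed per gene. Genes restored in all libraries with a mean of at least 1 FPKM (7200) were tested with limma 3.58.1 in R 4.3.3 on log2(FPKM + 1), with an eBayes trend, 2-sided, and Benjamini-Hochberg adjustment over all of them at 0.05; fold changes on this scale understate those of low genes. A difference is cerulein minus control. The steps were tested on simulated data. Promoters are RefSeq's, of GRCm38.p6, the same assembly as mm10; gene coordinates and overlapping exons are from GENCODE vM21. Whether counting used strand is not given. The members and lists were chosen with earlier results of these data known. All members may be named; of the other pathway genes, the 6 called ones with the largest change and Xbp1, Atf4 and Ddit3 are, and Ero1a is named beyond this rule as the paralog of Ero1b. Tests of unplaced members under likely readings were added after seeing the data. Alternatives were other pseudocounts, filters, scalings and acceptance rules, no trend, a replicate block and leaving out each library.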

Additional observations from a re-analysis of the deposited data

How the results depend on the processing

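The tested members that fell (16) numbered 11 to 23 under the other pseudocount, both filters, both scalings, the acceptance rules other than the wider spread, no trend and the block, and 21 when a call was required under every likely reading and unplaced members were admitted, a rule added after seeing the data; no member rose in any of them. With a replicate spread of 1.5 only 13 members could be placed and 6 fell. Leaving out 1 library gave 5 to 21. Other pathway genes that fell (10) numbered 6 with no filter, 6 when scaled outside the enzymes, and 2 to 13 when 1 library was left out. Over all genes, 414 rose and 343 fell. The number that rose was 254 with a pseudocount of 0.1 FPKM, 227 with no filter, 227 with a mean of at least 5 FPKM, 1653 when scaled outside the enzymes, 740 with the most probable place for every mark, 238 with a spread of 1.5 and 112 to 866 without 1 library. The number that fell was 140 with no filter, 180 when scaled outside the enzymes, 545 with the most probable place and 70 to 583 without 1 library. The cause was not tested. Signs turned for values that had not passed: outside the enzymes Atf4 moved to 0.275, Derl1 to 0.271, Derl2 to 0.317, Eif2ak3 to 0.305 and Txndc5 to 0.191, and with 1 library left out Derl2 ranged from -0.574 to 0.299 (turned without control library 3) and Pdia5 from -0.0756 to 0.439 (turned without control library 1). Of the 16 members called, 5 passed in every alternative that tested them (Derl3, Edem1, Herpud1, Hspa13 and Txndc11), and 10 lost their call in none except those that leave out a library. Whether the replicate numbers pair the samples could not be settled. Same-numbered libraries correlated at 0.142, 0.121 and -0.0485 in their deviations from the group means, and differently numbered ones at -0.168 to 0.1. Control library 3 correlated best with cerulein library 2. With 3 libraries in a group these deviations are not independent of each other, so the values cannot decide it. With the replicate block, 15 members fell, and 367 genes rose and 336 fell over all. Depth limits the controls most, at 6.45 to 8.09 fragments per FPKM at 2000 bases.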
